A study of Cichorium intybus with 5 samples.

Results

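The lipid transfer and hybrid proline-rich proteins of the chicory array were followed through 3 probes, selected by clone name out of the 2112 probes listed. Clone E009A6 carries a gene named SDI-9, whose closest Arabidopsis gene is AT2G38540, clone E002A7 a gene named DEA1, whose closest Arabidopsis gene is AT2G45180, and clone E007E2 a HyPRP with no Arabidopsis hit. The names come from the gene list of the study, which retained these 3 genes on the same hybridizations, and SDI-9 and DEA1 were also discussed there for their β-Glc Y response, so the number of them that passed a threshold here is not independent evidence. Transcripts were compared between leaf explants of 2 chicory (Cichorium intybus) genotypes, K59, which is embryogenic, and C15, a non-embryogenic genotype obtained by selfing K59. Explants were cut from 2-month-old in vitro plantlets, with 12 plants pooled per replica. They were taken without culture (d0) or cultured in somatic embryogenesis (SE) induction medium for 4 days at 35°C in the dark with shaking (d4), either without β-Glc Y (Y-) or with 250 µM of it (Y+). β-Glc Y, the Yariv reagent, is a coloured synthetic molecule that binds to and precipitates arabinogalactan-proteins of the cell wall. Each genotype is a single line, and no inactive Yariv analog was hybridized as a control.

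What was measured on the cDNA array is the signal of 1 RNA sample relative to another in the same hybridization, expressed as a log2 ratio. The 5 comparisons are d4 vs. d0 in K59 and in C15, Y+ vs. Y- at d4 in K59 and in C15, and K59 d0 vs. C15 d0, and all 3 probes have a value in every one. The submitters state 3 biological replicates for each condition, but the deposited table holds 1 value per probe and comparison. No spread, standard error or p-value can therefore be given, no difference between values was tested, and whether neighbouring values differ by more than experimental error is unknown. The study also lists its retained genes in a table of its own, in which the values of SDI-9 for C15 induction, DEA1 for K59 induction and HyPRP for both reagent comparisons fall in another threshold class than the deposited ones. Only the deposited values are used here, and those 4 are in doubt. Each value is set instead beside the other probes of the same comparison, of which there are between 492 and 1260. According to the paper, the arrayed sequences had been pre-selected by subtractive hybridization, from libraries of K59 against C15 at d4. Shares and ranks over all probes therefore describe this selected set and not the whole transcriptome. The threshold for calling a probe up or down was the ratio filter of the study's methods, 1 or -1 on the log2 scale, which is a 2-fold change. The study also applied a false discovery rate and SAM, a significance test for arrays. Neither could be applied to 1 value per probe, so up and down here are not the study's own calls.

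Non-specific lipid transfer proteins (nsLTPs) are small, secreted, cysteine-rich proteins with a hydrophobic cavity that binds fatty acids and other lipids. In plants they are known mostly from the epidermis and the cell wall, in cuticle formation and in defence, and in carrot an nsLTP is secreted by embryogenic cultures. SDI-9 is the name of a lipid transfer protein gene described in sunflower. DEA1 was described in tomato as a gene that responds to arachidonic acid, an elicitor, and its product carries the same conserved cysteine motif. Hybrid proline-rich proteins (HyPRPs) are structural cell wall proteins that join a proline-rich stretch to that cysteine motif. The ratios give no absolute level, so they cannot show how abundant a transcript was or in which cells of the explant it was made, and fewer cells of a type cannot be told apart from less RNA per cell.

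For SE induction in K59, the transcript of SDI-9 stood 2.73-fold lower at d4 than at d0, at a log2 ratio of -1.45. HyPRP stood 2.39-fold lower, at -1.26, and DEA1 1.21-fold lower, at -0.28. Thus SDI-9 and HyPRP passed the threshold and DEA1, whose value is one of those in doubt, did not, and all 3 were on the same side of 0. Relative to the median of its own plate DEA1 stood lower, at -0.56. Over the whole array 23.4% of the 867 probes with a value were at or below -1 in this comparison, and the median was 0.10. In this wide distribution of pre-selected probes, neither of the members past the threshold was extreme. A lower value than that of SDI-9 was found for 156 probes, a lower value than that of HyPRP for 182, and a lower value than that of DEA1 for 313.

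In C15 the same 4 days of culture gave another picture. The SDI-9 value, also in doubt, lay above 0, at 0.75, that is 1.68-fold higher at d4 than at d0. DEA1 was close to 0, with 0.08, and HyPRP slightly below, with -0.15 (-0.26 relative to its plate median). None of the 3 members reached the threshold in C15, where 8.3% of 1169 probes were at or below -1 and 1.54% at or above 1. The spread of C15 values over the array was small (scaled median absolute deviation 0.30, against 1.16 in K59), and within it SDI-9 was among the highest probes, with only 31 above it. DEA1 lay near the array median of 0.06, with 616 probes below it and 532 above. HyPRP had 320 probes below it and 840 above.

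**Figure D1:**
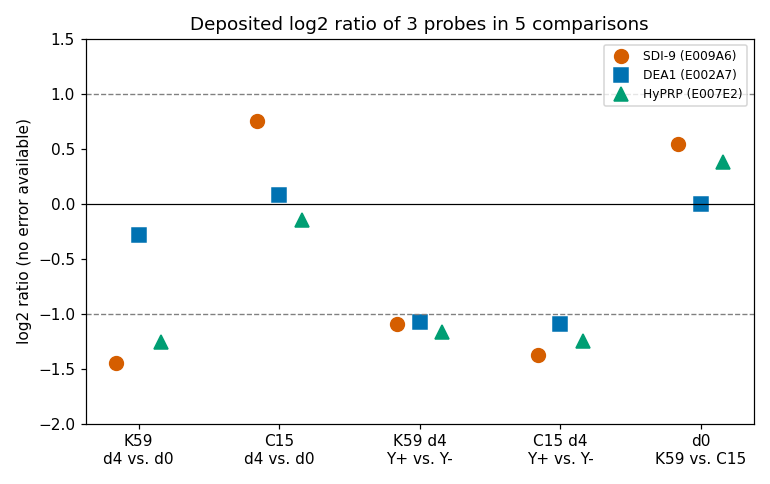
Log2 ratio of SDI-9 (circles), DEA1 (squares) and HyPRP (triangles) on the vertical axis in the 5 comparisons on the horizontal axis, with 1 deposited value per point, no error bars, and dashed lines at 1 and -1. All 3 probes lie below -1 in both Y+ vs. Y- comparisons, between -1.08 and -1.38, and spread from -1.45 to 0.75 in the d4 vs. d0 comparisons.

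Of the 3 members, SDI-9 had K59 and C15 induction values that lay farthest apart. K59 minus C15 was -2.20 on the log2 scale, a factor of 4.59 between the genotypes. Of the 811 probes measured for induction in both genotypes, only 16 had a lower difference, and 17% had a difference of -1 or lower. For HyPRP the difference was -1.11, also beyond -1, with 117 probes lower. For DEA1 it was -0.36, with 242 probes lower and 566 higher, in an array whose median difference was 0.14, and -0.62 with plate medians subtracted. These differences have 1 value on each side and were not tested. Those of SDI-9 and DEA1 each include a value in doubt.

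Few probes that were low in K59 had, like SDI-9, a value above 0 in C15. There were 188 probes at or below -1 in K59 that also had a C15 value, and their median in C15 was -0.94. Of these, 88 were at or below -1 in C15 as well, 16 lay above 0, and 4 lay above SDI-9. HyPRP had a C15 value closer to 0 than most of this group, with 27 of the 188 above it. This group of 188 was formed after the values were seen and serves as a description.

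**Figure D2:**
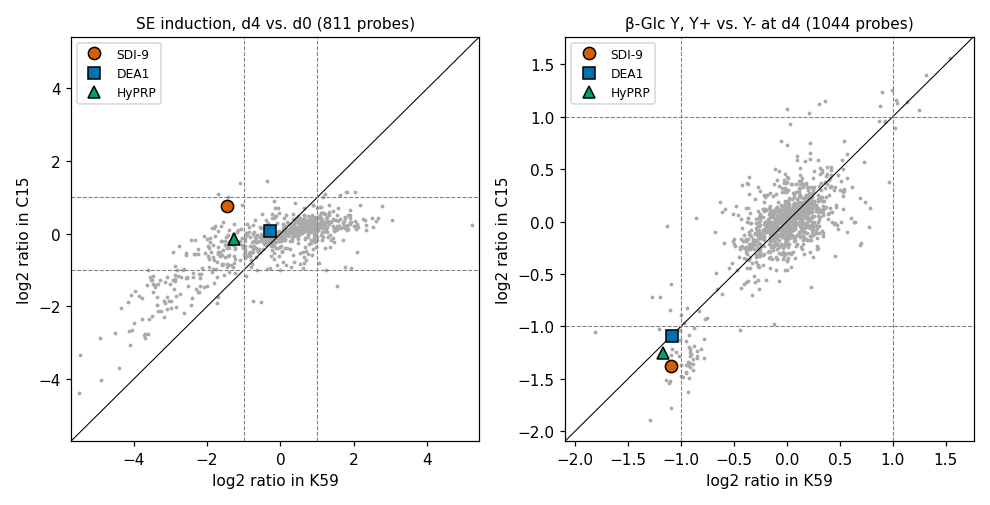
Log2 ratio in K59 (horizontal axis) against C15 (vertical axis) for SE induction (left, 811 probes) and for β-Glc Y (right, 1044 probes). Grey points are all probes with both values, coloured symbols the 3 members, the solid line marks equal values and dashed lines mark 1 and -1. In the left panel SDI-9 lies far above the line of equal values, at -1.45 in K59 and 0.75 in C15, and in the right panel the 3 members lie together near the line, in a separate cloud of probes at the lower left.

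With β-Glc Y the 3 members had closely similar low values. In K59 the log2 ratio of Y+ over Y- was -1.17 for HyPRP, -1.09 for SDI-9 and -1.08 for DEA1, so that each transcript was between 2.11-fold and 2.25-fold lower with the reagent. All 3 passed the threshold in the deposited values, that of HyPRP being in doubt, beside 2% of the 1201 probes at or below -1. Their values covered a range of 0.09, against 1.17 in K59 induction. HyPRP was the sixth lowest probe of the comparison, with 5 probes lower, whereas 11 were lower than SDI-9 and 15 lower than DEA1. Such close values are not particular to these genes, since 12 probes in all, the 3 members included, lay between -1.17 and -1.08. In C15 the order was different. SDI-9 was the lowest of the 3, at -1.38 (2.60-fold lower), followed by HyPRP at -1.25 (2.38-fold) and DEA1 at -1.09 (2.13-fold). Again all 3 passed the threshold, with HyPRP in doubt, which 3.81% of 1260 probes did in this direction. Lower values were found for 13 probes in the case of SDI-9, 29 for HyPRP and 41 for DEA1. Because the order of the 3 genes changed between the genotypes while their values were close, and no error is known, no ranking among them can be read from the reagent comparisons.

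For the reagent, the K59 and C15 values of each member lay close together. K59 minus C15 was 0.29 for SDI-9, 0.08 for HyPRP and 0.01 for DEA1, all under the size of 1 that SDI-9 and HyPRP exceeded for induction. The scaled median absolute deviation of this difference over 1044 probes was 0.19, and 114 probes had a higher difference than SDI-9. Without replicates this does not show that the genotypes respond alike.

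**Figure D3:**
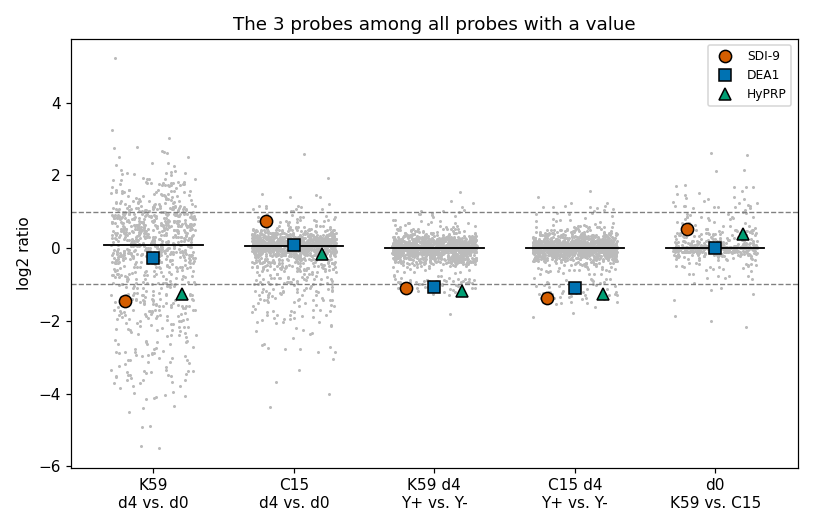
Log2 ratio (vertical axis) of every probe with a value (grey points, spread sideways for visibility) in each of the 5 comparisons, with the array median as a black line, the members as coloured symbols and dashed lines at 1 and -1. The members sit at the low edge of the narrow Y+ vs. Y- distributions, whereas K59 d4 vs. d0 is wide and SDI-9 and HyPRP lie well inside it, with 156 and 182 probes lower.

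Of the 1044 probes with a value in both reagent comparisons, 18 were at or below -1 with β-Glc Y in both genotypes. The 3 members are among them, HyPRP by values in doubt, and 9 of the 18 are named in the gene list of the study. The members were typical of this group, whose median was -1.09 in K59 and -1.28 in C15, and like them 16 of the 18 were lower in C15 than in K59. For induction the 18 were far from uniform, ranging from -4.92 to 1.55 in K59 and from -2.86 to 0.75 in C15. SDI-9 holds the upper end of that C15 range. By the threshold, SDI-9 and HyPRP fall in a class of 5 probes that were down in K59 induction and within the threshold in C15. DEA1 falls in a class of 4 that were within it in both, together with GAPDH (clone E002A3), a glycolytic enzyme. The classes of SDI-9 and DEA1 hold for the deposited values only, as the C15 value of SDI-9 and the K59 value of DEA1 are in doubt. Of the remaining probes, 4 were down in both genotypes, 4 were up in K59 and within the threshold in C15, and the arabinogalactan-protein AGP (clone E005B11) was up in K59 and down in C15. Among all 80 probes with the induction class of SDI-9 and HyPRP and a value in both reagent comparisons, 6.25% were down with the reagent in both genotypes, and among the 434 with the class of DEA1 0.922% were. Over the 736 probes with all 4 induction and reagent values, 18 were down with the reagent in both genotypes. The members themselves are in all these counts.

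In the plot of K59 against C15 the members sit in a cloud of probes that stands apart from the rest of the array in the reagent comparisons. With bounds chosen after the values were seen, 54 probes had a reagent log2 ratio of -0.75 or lower in both genotypes, whereas only 5 more were at -0.5 or lower in both. This cloud drew on 17 plates, with 1 probe from the plate of SDI-9, 8 from that of DEA1 and 2 from that of HyPRP, the second being the clone E007C4. Of its 52 probes with both induction values, 14 had a K59 minus C15 induction difference of -1 or lower, SDI-9 and HyPRP among them. Over all 811 probes with both values it was 138, or 17%, and the 2 shares were not compared by a test. In the cloud 2 probes had a lower difference than SDI-9.

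Clones were amplified in plates, and the plate of each member was examined as a technical unit. The 18 probes came from 11 plates. On the plate of SDI-9 no probe was lower than it with the reagent, among 54 with a value in K59 and 58 in C15, and it was the only one at or below -1 in either. On the plate of HyPRP no probe was lower than it among 77 in K59 and 73 in C15, and 1 and 2 probes were at or below -1. The plate of DEA1 held more low probes, 4 of 59 in K59 and 8 of 70 in C15, and 4 of the 18 came from it. The plate medians in the reagent comparisons lay between -0.09 and 0.09 for the 3 plates. The part of the plate in the DEA1 values was not tested.

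If the d4 Y- explants of the induction and the reagent comparisons are taken as alike, the log2 ratios can be added to place d4 Y+ against d0. In K59 the sum was -2.54 for SDI-9, -2.43 for HyPRP and -1.36 for DEA1. Thus SDI-9 and HyPRP were each more than 5-fold lower than at d0 on this chain (5.82-fold and 5.39-fold), and DEA1 2.57-fold lower. Of 769 probes with both K59 values, 67 had a lower sum than SDI-9, 71 than HyPRP and 135 than DEA1, so that none of the 3 was extreme. In C15 the sum was -1.40 for HyPRP, -1.01 for DEA1 and -0.63 for SDI-9, the last because its reagent value of -1.38 followed an induction value above 0. Of 1070 probes, 73, 119 and 180 had a lower sum than HyPRP, DEA1 and SDI-9. The medians of these sums over all probes were 0.14 in K59 and 0.05 in C15. An added value carries the unknown error of both its parts. Values in doubt enter the K59 sums of HyPRP and DEA1 and the C15 sums of SDI-9 and HyPRP.

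For uncultured leaves, K59 d0 vs. C15 d0, the listed log2 ratios were 0.54 for SDI-9, 0.38 for HyPRP and 0.00 for DEA1. None reached the threshold, which 6.71% of the 492 probes passed upwards and 1.42% downwards. SDI-9 had 60 probes above it and HyPRP 90. As labelled these are ratios of K59 over C15, but the direction of this comparison rests on the labels alone and is not settled. Its values correlated negatively across probes with those of induction (r = -0.54 over 486 probes in K59 and -0.52 over 491 in C15, where probes are not independent replicates). In either direction, the d0 RNA shared with each induction ratio would pull the K59 and C15 correlations to opposite signs. Both are negative, so they do not settle the direction, and their source was not tested. The submitters exempt it from the full set of dye-swapped hybridizations. With the sign turned, SDI-9 stands at -0.54 and HyPRP at -0.38, and the 60 and 90 probes would then lie below them. The 0.00 of DEA1 is a value that 57 of the 492 probes share exactly, so equal expression of DEA1 in both genotypes cannot be read from it.

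The d0 ratio and the induction ratios together place K59 against C15 at d4, by adding K59 minus C15 to the d0 value, a sum chosen after the values were seen. For SDI-9 it was -1.66 with the labelled direction and -2.74 with the sign turned, both resting on its C15 induction value, which is in doubt. For HyPRP it was -0.73 and -1.49. No such sum is given for DEA1, whose d0 value of 0.00 cannot be read. Among the 486 probes with these 3 values, 22 were lower than SDI-9 with the labelled direction and 24 with the sign turned, and 84 were lower than HyPRP in each case. The median sum over the 486 probes was 0.10 and 0.13, and 11.5% and 23.0% of them were at or below -1, in the same order.

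Likeness of pattern was measured as the Euclidean distance over the 4 induction and reagent log2 ratios among 736 probes with all 4 values. On these unscaled values SDI-9 and HyPRP were close neighbours. K59 induction weighs most in this distance, with a scaled median absolute deviation of 1.16 against 0.30 in C15 induction and 0.22 and 0.21 for the reagent. In C15 induction SDI-9 (0.75) and HyPRP (-0.15) stood apart, with DEA1 (0.08) between them. The order of the members as neighbours of each other therefore rests on this weighting. HyPRP was the second nearest of 735 probes to SDI-9, at a distance of 0.93, behind only the unnamed clone E007C4 at 0.78. All distances from the members rest on deposited values that are partly in doubt. These are SDI-9 for C15 induction, DEA1 for K59 induction and HyPRP for both reagent comparisons. E007C4 was also the nearest probe to HyPRP, at 0.45, with log2 ratios of -1.07 and 0.13 for induction in K59 and C15 and -0.88 and -1.19 for the reagent. It comes from the same plate as HyPRP. Next in order for SDI-9 was the unnamed clone E001B1 (1.30), and next for HyPRP were the unnamed clones E015C12 (0.73) and E017D3 (0.89). Among the 118 named clones compared, the 2 nearest to SDI-9 were HyPRP and DEA1 (1.38), and the 2 nearest to HyPRP were SDI-9 and DEA1 (1.02). After these came a serine-type endopeptidase inhibitor (clone E017B9) for SDI-9, at 1.63, and the 40S ribosomal protein S17 (clone N104E11), a component of the small ribosome subunit, for HyPRP, at 1.29. DEA1 had other neighbours. The nearest were the unnamed clones N101A6 (0.32), E017B1 (0.53) and N103A1 (0.59), and among named genes a quinone reductase (clone E017C3, 0.61), the serine-type endopeptidase inhibitor (0.74) and GAPDH (0.83). Seen from DEA1, HyPRP was only the 22nd and SDI-9 the 55th probe. These lists depended on the measure for SDI-9 and HyPRP, for each of which 1 of the 3 nearest probes was retained when each comparison was divided by its spread or when d0 was added, where E007C4 drops out for want of a d0 value.

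Other small secreted proteins of defence on the array are snakin 2 (clone N104F11) and the defensin SD2 (clone N102D12), which are cysteine-rich antimicrobial peptides, and the protease inhibitor PI2 (clone N101E12), of a family that is not cysteine-rich. They have no value for K59 induction. In C15 their induction log2 ratios were 1.93, 1.40 and 0.90, higher than the 0.75 of SDI-9, and 2 of 3 passed the threshold upwards. With β-Glc Y their values were unlike. Snakin 2 was low in both genotypes, with -0.91 in K59 and -1.35 in C15, the defensin stood at -0.32 and -0.18, and PI2 was above 1 in both, with 1.13 and 1.14, where 0.583% of probes in K59 and 1.03% in C15 were at or above 1. All 3 are listed at 0.00 for d0.

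**Figure D4:**
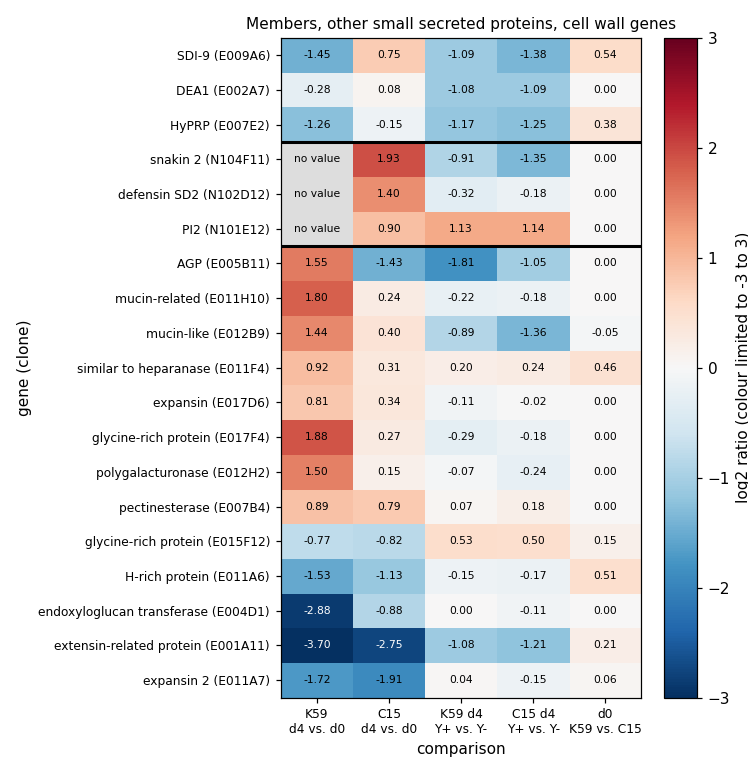
Log2 ratios (colour and printed value) of the 3 members (top block), 3 other small secreted proteins of defence (middle block) and 13 cell wall genes (bottom block) in the 5 comparisons; grey cells have no deposited value. With β-Glc Y the members, AGP and the extensin-related protein have values below -1 in both genotypes, and most other genes of the bottom block lie near 0.

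Of the 13 genes in the cell wall list, 5 were up and 4 down in K59 induction, in which 17.3% of all probes were up and 23.4% down. In C15 induction none was up and 4 were down, beside 8.3% of all probes down. With the reagent 2 were down in K59 and 3 in C15, beside 2% and 3.81% of all probes, with medians of -0.11 and -0.17 against -1.09 and -1.25 for the members. The cell wall genes down in both reagent comparisons were AGP, a heavily glycosylated wall proteoglycan that β-Glc Y binds, with -1.81 and -1.05, and an extensin-related protein (clone E001A11), of the hydroxyproline-rich structural wall proteins, with -1.08 and -1.21. A mucin-like protein (clone E012B9) stood at -0.89 in K59 and -1.36 in C15. AGP resembled the members in its reagent values but was opposite to SDI-9 for induction, with 1.55 in K59 and -1.43 in C15. The extensin-related protein was low after induction in both genotypes, with -3.70 and -2.75, unlike HyPRP, which was low only in the K59 value. Both expansins, which loosen walls, stayed between -0.15 and 0.04 with the reagent.

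The genes of lipid and isoprenoid metabolism on the array also took separate courses. ATP citrate lyase (clone N104B10), which supplies cytosolic acetyl-CoA, had reagent values of -0.91 in K59 and -1.39 in C15, near those of the members, but induction values of 1.90 and 0.65. Acyl-CoA oxidase (clone E009B5), of peroxisomal fatty acid breakdown, stood at 1.31 and 0.60 after induction and at 0.21 and 0.27 with the reagent. HMG-CoA reductase (clone E011F11), of the mevalonate pathway, shared the low induction value of SDI-9 in K59 (-2.05) but was high with the reagent, with 1.31 and 1.40.

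The labelled tissue, leaf, cannot be checked by levels in ratio data. The 6 photosynthesis genes, typical of leaf mesophyll, were all below 0 after induction, from -5.50 to -0.97 in K59 and from -4.37 to -0.34 in C15, and 5 and 4 of them passed the threshold. SDI-9 and HyPRP were past the threshold in K59 and within it in C15, where the value of SDI-9 is in doubt. The chlorophyll a/b-binding protein (-0.99) and the PSI reaction center subunit (-0.34) were also within the threshold in C15. With β-Glc Y the 6 photosynthesis genes lay between -0.26 and 0.48, none past the threshold. All 3 members passed it, HyPRP by values in doubt. The part of the photosynthesis genes in the induction values of the members was not tested.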

How the data were processed

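Members and gene lists were chosen with earlier results of these data known. The log2 ratios were deposited already processed. The authors had started from median spot intensities of 2-colour cDNA arrays with the background subtracted, followed by removal of artefactual, saturated and low-signal spots, global lowess and print-tip median normalization of each slide, and removal of probes that behaved oppositely after dye swap. How hybridizations were combined into 1 value per probe and comparison is not given in the sources used here, and single hybridizations and intensities were not analysed here. Scale and direction follow the methods and labels and could not be set against intensities. Centring was kept, with medians of 0.10, 0.06, 0.00, 0.00 and 0.00 in the order K59 and C15 induction, K59 and C15 reagent, d0. The number of arrays limits the precision.

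Values were counted at 1 or -1 and ranked over all probes with a value. Likeness was the Euclidean distance over 4 comparisons, not scaled to their spread. Genes named are the members, the 3 nearest probes and 3 nearest named genes of each, genes of the lists on small secreted defence proteins, cell wall, lipid and isoprenoid metabolism and photosynthesis, and the classes of probes down with the reagent. Gene names come from the study's gene list. Alternatives were thresholds of 0.95 and 1.5, subtracting comparison or plate medians, turning the d0 sign, other sets of ranked probes and other distance measures. For single values with no error, an alternative was called a change where the value crossed 1 or -1 or changed sign. Ranks, distances and centring were tested on a simulated table of 2112 probes and passed 6 of 6 checks. Python 3.11.15, numpy 2.4.6, pandas 2.3.3 and matplotlib 3.10.9 were used.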

Additional observations from a re-analysis of the deposited data

Results flagged for a closer look

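SDI-9 had values of opposite sign in the genotypes after induction, with 0.75 in C15 but -1.45 in K59. K59 minus C15 was -2.20, and this difference was not tested. DEA1 also had opposite signs, -0.28 and 0.08, with a difference of -0.36 that was not tested either. Both values are small, as 705 of 867 probes in K59 and 948 of 1169 in C15, DEA1 included, were at least as large in size. The K59 value of DEA1 is in doubt, since the study's own gene table places it in another threshold class. The same holds for the C15 value of SDI-9.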

How the results depend on the processing

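Subtracting the median of each comparison, or of the plate of each probe, moved none of the 15 member values across the threshold and changed no sign. By over 1.5 times, plate medians moved DEA1 in K59 induction from -0.28 to -0.56 and HyPRP in C15 induction from -0.15 to -0.26, and K59 minus C15 for DEA1 from -0.36 to -0.62. Counts of members past the threshold were also kept at 0.95, but at 1.5 they went to 0 in K59 induction and in both reagent comparisons, as every member value lies within 1.5. The K59 minus C15 reagent difference of DEA1 went from 0.01 to -0.045 after plate medians were subtracted, a change of sign. The other 5 differences kept their sign and their side of 1. With the d0 sign turned, SDI-9 stands at -0.54 and HyPRP at -0.38. Ranking over the 736 probes with all 4 values (467 of them with a d0 value) moved 5 of 15 percentages beyond their counting interval, and leaving out exact zeros moved none of the 14 that could be recomputed. Among clone pairs with a shared Arabidopsis hit and the same or a similar gene name (3 pairs, 15 differences), which can be different genes, the median absolute difference was 0.35 and the largest 5.44. The induction values of the pairs differed more, by 0.61, 1.39 and 5.44 in K59 and by 0.35, 1.17 and 2.29 in C15. Reagent and d0 values of the pairs differed by 0.06 to 0.81. No paired analysis was possible because each comparison has 1 value, and for the same reason no replicate could be left out.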
